A study of Chlamydomonas reinhardtii with 6 samples.

Results

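The neighbouring genes Cre12.g551352 and Cre12.g551353 on chromosome 12 of the unicellular green alga Chlamydomonas reinhardtii had no counts in any cell group library, whereas both were expressed in every single cell library. They are the pair described as the L-amino-acid oxidase genes LAO1 and LAO2, 2 of the 17741 genes in the count table. They were chosen by their counts in these same 6 libraries, so the difference between the morphotypes is given for them as a description without a test. The gene table used here pairs identifiers with no gene names. Neither the identity of the genes as oxidases nor which identifier is LAO1 was therefore checked here.

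As background, an L-amino-acid oxidase removes the amino group of L-amino acids with the use of oxygen and releases ammonium, a keto acid and hydrogen peroxide. In Chlamydomonas the enzyme lies outside the plasma membrane and is known for letting the alga draw nitrogen from amino acids that it does not import. Its activity is known to appear when ammonium is lacking.

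The 6 libraries came from 1 isolate of each morphotype, and both isolates descend from the wildtype strain cc1009. The cell group isolate (growing as groups with no single cells) came from the line kept with rotifer predators and the single cell isolate from the line kept without them, so that morphotype, selection history and isolate cannot be told apart. Each isolate grew in chemostats on COOL80 medium (80 µM nitrogen) for 10 days and then for 5 days with the rotifer Brachionus calyciflorus added, with the nitrogen supply lowered to 40 µM, or as an unaltered control. RNA of the 3 chemostats of a treatment was pooled, which gave 1 library for each morphotype and treatment. The treatments therefore stand as the replicates of a morphotype, and the spread between them holds treatment effects. Library totals ran from 5453218 to 9054895 counts, with the rotifer library the smallest of each morphotype. For the rotifer samples the paper reports potential contamination, seen as a larger share of unmapped reads than in the other samples. In bulk RNA, fewer cells that express a gene and less RNA per cell cannot be told apart.

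In the reference gene table (RefSeq, assembly Chlamydomonas_reinhardtii_v5.5) Cre12.g551352 spans chr12:8129526-8132497 and Cre12.g551353 spans chr12:8132546-8135711. The 2972 bp and 3166 bp of the genes are separated by 48 bp. No other gene of the table lies between them. Strand is not given in that table, and the strand setting of the counting is not given in the sources used here.

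Cre12.g551352 had 0, 0 and 0 counts in cell groups, against 209, 148 and 839 counts in single cells (with rotifers, at low nitrogen and in the control). In CPM, the count relative to the library size after TMM scaling, the single cell libraries held 37.2, 17.4 and 86.5 CPM, a mean of 47.0 ± 35.6 CPM (SD, n = 3 libraries). Its lowest single cell value was at low nitrogen and its highest in the control, and the morphotypes did not overlap in any treatment.

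Cre12.g551353 had 0, 0 and 0 counts in cell groups, against 1015, 2036 and 2926 counts in single cells (with rotifers, at low nitrogen and in the control). These counts correspond to 180.5, 239.3 and 301.6 CPM in single cells, a mean of 240.5 ± 60.6 CPM (SD, n = 3 libraries). Here the rotifer library was the lowest of the single cell libraries, and the control again the highest.

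**Figure D1:**
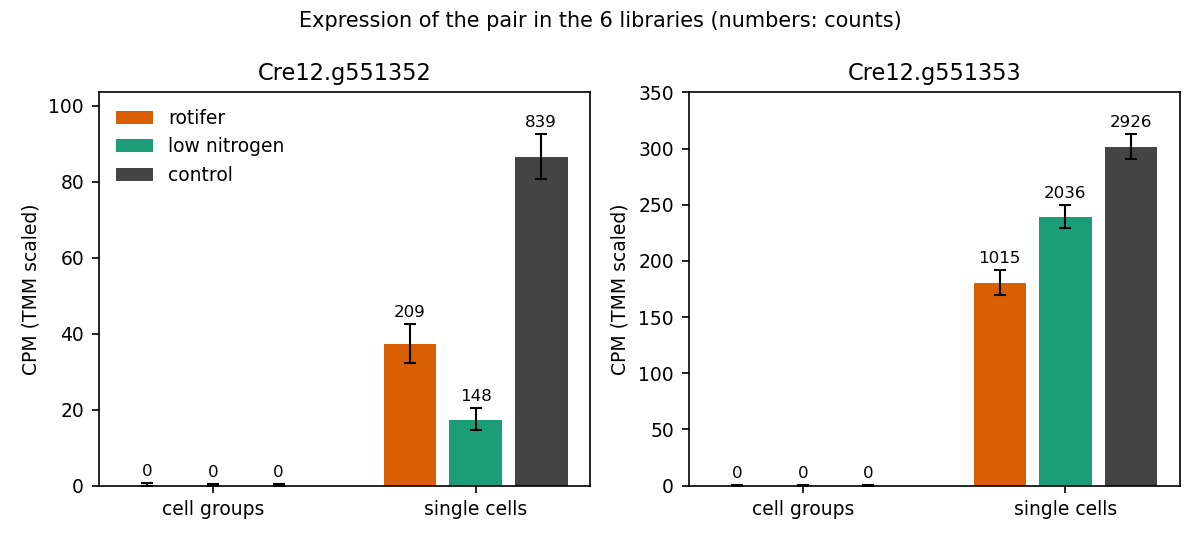
Expression of Cre12.g551352 (left) and Cre12.g551353 (right) in CPM, by morphotype and treatment, with 1 bar per library, its count above it and exact 95% Poisson intervals as error bars. All 6 cell group bars are at 0, and in single cells the control bar is the highest for both genes.

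A count of 0 does not set the level at 0. A floor of 3 counts corresponded to 0.573 CPM with rotifers, 0.361 CPM at low nitrogen and 0.400 CPM in the control in the cell group libraries. The upper ends of the two-sided 95% Poisson intervals of a count of 0 were higher, at 0.705, 0.444 and 0.491 CPM, and bounds set against them would be lower than those against the floor. Set against these floors, Cre12.g551352 was at least 64.9-fold lower in cell groups with rotifers, at least 48.2-fold lower at low nitrogen and at least 216-fold lower in the control. Cre12.g551353 was at least 315-fold, at least 663-fold and at least 755-fold lower in cell groups in the same treatments. Floors and intervals cover counting error only, and pooled libraries hold no measure of the spread between chemostats. Whether the DNA of the pair is present and unchanged in the cell group isolate was not tested here, and RNA counts alone cannot tell a missing gene from a silent one. The paper also sequenced genomes of cell group and single cell isolates, but those reads were not examined here.

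In single cells Cre12.g551353 ranked high among the genes with counts in every treatment, and Cre12.g551352 ranked lower. Both were chosen by their counts in these libraries, so the ranks are a description. Per kilobase of gene span, Cre12.g551353 lay above 95.5%, 97.0% and 97.7% of the genes with counts in single cells with rotifers, at low nitrogen and in the control. Cre12.g551352 lay above 83.4%, 71.3% and 92.5% of them in the same libraries. The span includes introns, so these ranks compare levels per length of the gene and not of the transcript.

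The pair was chosen by the absence of its counts in cell groups. How rare that pattern is over all genes is therefore only a description, at a limit set with the pair known. A count of 0 in every cell group library with at least 100 counts in every single cell library was found for 3 genes, 0.0169% of the count table. Besides the pair this was Cre10.g448500, with 0, 0 and 0 counts in cell groups, against 212, 235 and 184 counts in single cells (with rotifers, at low nitrogen and in the control). In the opposite direction, 1 gene had no counts in single cells and at least 100 in every cell group library. The pair was the only run of neighbouring genes by identifier order with the pattern at this limit, in either direction. That depends on the limit: at 10 counts in every single cell library, 7 genes without counts in cell groups formed 2 such runs.

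The members differed from each other in how they varied over the treatments of single cells. Cre12.g551352 was 0.430 times its control level with rotifers and 0.201 times at low nitrogen. Cre12.g551353 was 0.598 and 0.793 times its control level in the same libraries. In these single cell libraries 15.7% of all tested genes lay at least 2-fold below the control with rotifers and 13.6% at low nitrogen, and Cre12.g551352 was among them in both treatments while Cre12.g551353 was in neither. Each of these values rests on 1 library and has no replicate check.

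The balance within the pair moved accordingly. In single cells, Cre12.g551352 held 17.1% of the 1224 counts of the pair with rotifers (exact Clopper-Pearson 95% interval 15.01 to 19.3). It held 6.78% of 2184 counts at low nitrogen (5.76 to 7.91) and 22.3% of 3765 counts in the control (21.0 to 23.6). The 3 intervals did not overlap, and the share was lowest at low nitrogen. These intervals cover counting error only, with 1 pooled library per treatment, and hold no spread between cultures. Between low nitrogen and control the ratio of the genes changed 3.94-fold, and between rotifers and control 1.39-fold. On the log2 scale the ratio of Cre12.g551352 to Cre12.g551353 changed by -1.98 at low nitrogen, against a median absolute change of 0.57 over 2265 pairs of neighbouring genes. With rotifers it changed by -0.48, against a median absolute change of 0.68, so that the shift with rotifers was smaller than that of the median pair. Among these pairs, all with at least 100 counts in every single cell library, 26.4% changed their ratio at least 2-fold between low nitrogen and control. A change of at least 2-fold was thus not particular to the pair, and the share of pairs that changed as much as 3.94-fold was not computed. In cell groups no ratio could be formed.

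**Figure D2:**
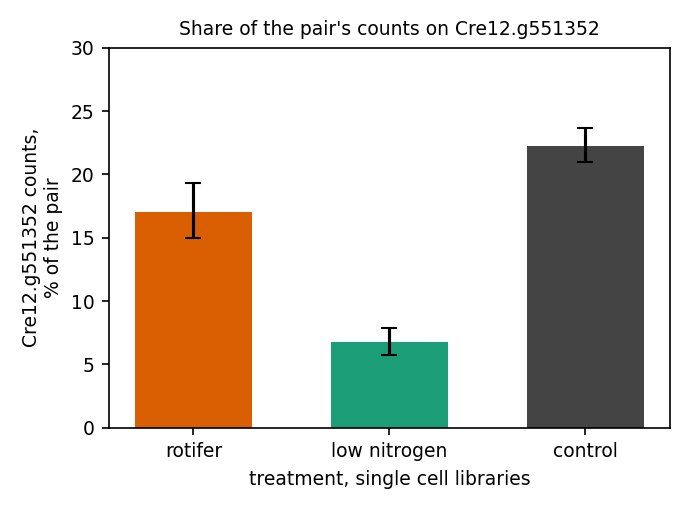
Share of the counts of the pair that fell on Cre12.g551352, in percent, in the 3 single cell libraries, with exact binomial 95% intervals (counting error only). The share was 17.1% with rotifers, 6.78% at low nitrogen and 22.3% in the control.

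The genes around the pair were compared to see whether the loss of counts stopped at it. Among the 10 genes on each side by identifier order, none of the genes that were expressed in single cells was at 0 in all cell group libraries. The only one without counts in cell groups was Cre12.g551650, which had none in single cells either. Differences were tested over all genes with edgeR's quasi-likelihood test, with treatment as a covariate and Benjamini-Hochberg adjustment. Of the 20 neighbours, 15 had enough counts to be tested, and 1 of them had an adjusted p under 0.05. It was lower in cell groups. Over all 14136 tested genes, 7.62% passed, 2.86% as lower in cell groups, and on chromosome 12 the share of genes lower in cell groups was 2.42%. Nothing particular to the neighbours can be read from a single call among 15 genes against that background.

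The neighbour that passed was Cre12.g551350, the gene directly beside Cre12.g551352, from which it is separated by 100 bp. It had 128, 257 and 151 counts in cell groups, against 702, 1099 and 898 counts in single cells (with rotifers, at low nitrogen and in the control). This was 24.5, 30.9 and 20.1 CPM in cell groups and 124.9, 129.2 and 92.6 CPM in single cells, so that the morphotypes did not overlap. The log2 fold change of cell groups over single cells was -2.20 (SE 0.25, edgeR adjusted p = 0.00610), with -2.33, -2.05 and -2.17 with rotifers, at low nitrogen and in the control. Unlike the pair it kept counts in every cell group library. Over the treatments Cre12.g551350 did not follow the pair, since in both morphotypes its lowest level was in the control. Without the rotifer library of cell groups the adjusted p was 0.0602, and without that of single cells 0.0668, at log2 fold changes of -2.13 and -2.14. With treatment as a covariate, either fit takes the rotifer treatment out of the comparison.

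The gene on the other side by position was Cre12.g551250, 63 bp from Cre12.g551353. It had 58, 92 and 138 counts in cell groups, against 63, 98 and 748 counts in single cells (with rotifers, at low nitrogen and in the control). With rotifers this was 11.1 CPM in cell groups and 11.2 CPM in single cells, at low nitrogen 11.1 and 11.5 CPM, and in the control 18.4 and 77.1 CPM. The morphotypes thus stood apart in the control library pair and not in the others. Its log2 fold change was -0.73 (SE 0.47, edgeR adjusted p = 0.384), and the difference did not pass. The value ran from -1.11 to -0.04 when single libraries were left out, with -0.07 without the control library of cell groups and -0.04 without that of single cells, and was -1.30 without the treatment covariate. Within treatments it was -0.02 with rotifers, -0.06 at low nitrogen and -2.04 in the control. The absence of counts from cell groups in all treatments ended at Cre12.g551353 on this side.

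**Figure D3:**
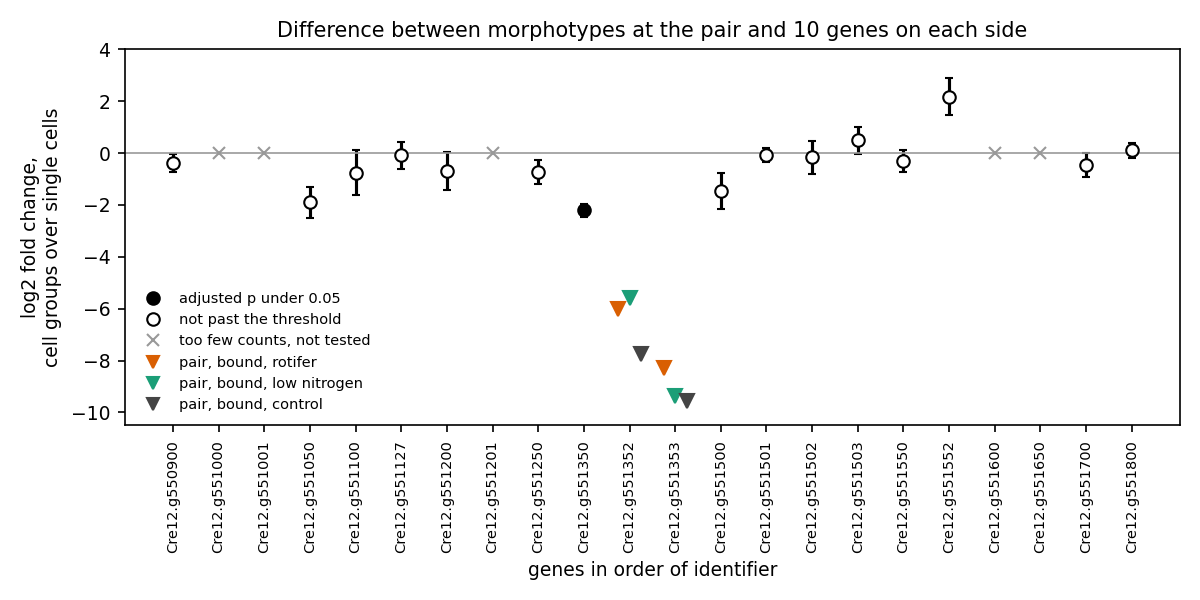
Log2 fold change of cell groups over single cells for the 10 genes on each side of the pair in identifier order, with standard errors. Triangles give the pair as bounds against the floor of 3 counts, 1 per treatment, and crosses at 0 mark genes without a fitted value. Cre12.g551350 at -2.20 is the only neighbour past the threshold, and 5 neighbours had too few counts to be tested.

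None of the other 14 tested neighbours passed. Their log2 fold changes ran from -1.91 to 2.17 and their edgeR adjusted p from 0.104 to 0.943. The lowest of these fold changes was that of Cre12.g551050, with 2, 6 and 11 counts in cell groups against 17, 20 and 40 in single cells with rotifers, at low nitrogen and in the control (SE 0.59, edgeR adjusted p = 0.104). The highest was that of Cre12.g551552, with 66, 7 and 23 counts in cell groups against 5, 3 and 12 in single cells (SE 0.71, edgeR adjusted p = 0.117). Its log2 fold change was 1.26 without the rotifer library of single cells, and in 4 of the 6 fits with a library left out it had too few counts to be tested. The most expressed neighbour, Cre12.g551501, had 9100, 11491 and 14845 counts in cell groups against 8933, 12597 and 22153 in single cells, and the morphotypes overlapped at a log2 fold change of -0.06 (SE 0.27, edgeR adjusted p = 0.922). The sign of that value changed when the control library of single cells was left out.

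Over the 15 tested neighbours in identifier order the median log2 fold change was -0.38, against 0.01 over all tested genes. Of the 15, 12 had a negative value. Every cell group library lay below every single cell library for 3 of the 15, Cre12.g551350, Cre12.g551050 and Cre12.g551500, where 14.3% of all tested genes did so. The single cell control library was the highest of the 6 for 8 of the 15 neighbours, against 23.5% of all tested genes. These included Cre12.g551250, Cre12.g551200 and Cre12.g551100. Cre12.g551100 had 2.29, 5.65 and 3.06 CPM in cell groups against 2.49, 2.59 and 27.8 CPM in single cells with rotifers, at low nitrogen and in the control, so that it was lower in cell groups by a wide margin in the control only. The part of the single cell control library in the negative median was not tested.

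Identifier order is not quite the order on the chromosome. Of the 20 neighbours, 17 were also among the 10 nearest genes on each side by position, and Cre12.g551127 and Cre12.g551552 lay over 1 Mb away (1484056 and 1489836 bp from the pair). By position 14 of the 20 neighbours were tested, and again Cre12.g551350 was the only one that passed. The median log2 fold change of these 14 was -0.71, and 13 of them had a negative value. For 4 of the 14 every cell group library lay below every single cell library, against 14.3% of all tested genes. These included Cre12.g550850, with a log2 fold change of -1.40 (SE 0.39, edgeR adjusted p = 0.0817). On the side of Cre12.g551250 the single cell control library was the highest of the 6 for 6 of the 7 tested genes, and on the side of Cre12.g551350 for 3 of 7.

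**Figure D4:**
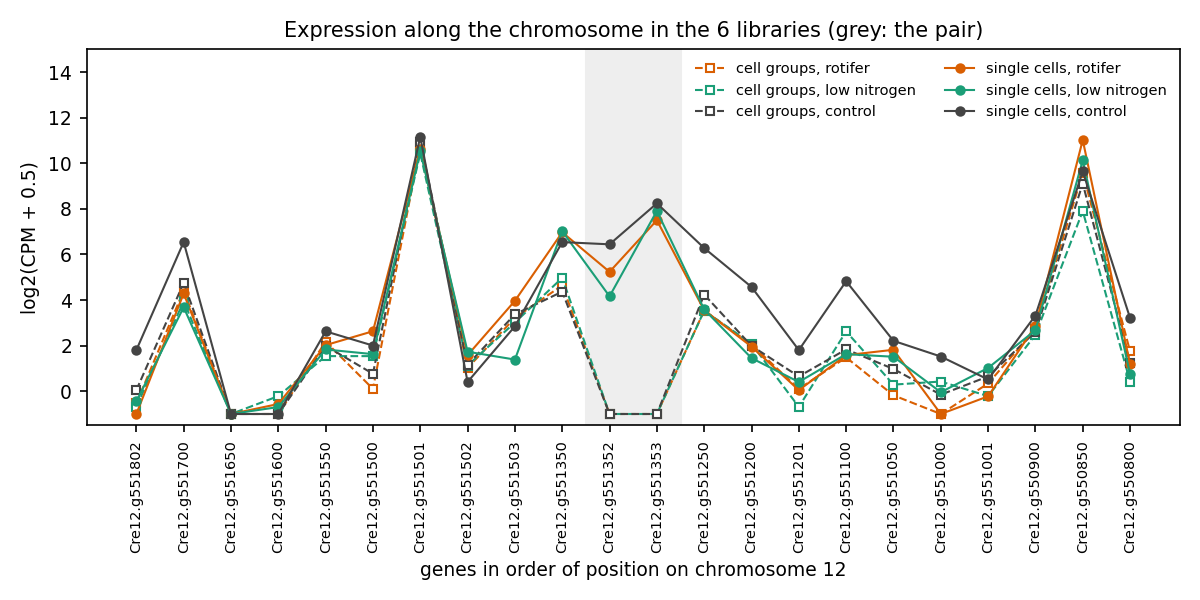
Expression as log2(CPM + 0.5) of the pair (grey) and of the 10 genes on each side in order of position, with 1 line per library, dashed with open squares for cell groups and solid with filled circles for single cells. Lines join genes only to guide the eye. The cell group lines drop to the level of 0 counts at the pair and lie at 20.1 to 30.9 CPM at Cre12.g551350 next to it.

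Treatments were also compared over both morphotypes, with morphotype as a covariate. Since the pair had no counts in cell groups, its values there come from single cells alone and were not tested. No gene had an edgeR adjusted p under 0.05 between low nitrogen and control or between rotifers and control, 0% of the tested genes, the 15 tested neighbours included, and 816 and 1019 genes had an unadjusted p under 0.05. The Wald test of DESeq2 called 53 and 83 genes in the same comparisons.

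The genes most like the pair were ranked by Pearson's r of log2(CPM + 0.5) with the mean of the members over the 6 libraries, a description without a test, since the split between the morphotypes alone makes r high. Cre16.g674100 came first (r = 0.997), with 0, 1 and 0 counts in cell groups against 61, 106 and 245 in single cells (with rotifers, at low nitrogen and in the control). Cre03.g145347 (r = 0.996), Cre06.g278187 (r = 0.995), Cre07.g315050 (r = 0.995) and Cre08.g372400 (r = 0.994) followed. They kept counts in all cell group libraries. Cre08.g372400 had 99, 153 and 142 counts in cell groups against 129, 191 and 231 in single cells. Likeness in this sense does not cover the size of the difference, nor the order of the libraries within a morphotype. That order differed between the members themselves. In single cells Cre16.g674100 was lowest with rotifers, as was Cre12.g551353, whereas Cre12.g551352 was lowest at low nitrogen. For Cre16.g674100 the margin was small, at 10.8 CPM with rotifers and 12.5 CPM at low nitrogen, with 1 library each. Spearman's rho with the pair was 0.88 to 0.94 for these 5 genes.

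In the table of log-scale values that the authors normalized with DESeq2, the absence of counts is less visible. Cre12.g551352 stood at 4.13, 3.99 and 4.02 in cell groups and at 7.29, 6.49 and 8.16 in single cells (with rotifers, at low nitrogen and in the control). Cre12.g551353 stood at 5.56, 5.46 and 5.49 in cell groups and at 9.57, 9.83 and 10.1 in single cells. A count of 0 thus has a different value for each gene on that scale. The mean difference of cell groups minus single cells there was -3.27 for Cre12.g551352 and -4.33 for Cre12.g551353, smaller in size than every bound from the counts. The mean columns of that table are exchanged. For all 16528 genes the column named for cell groups holds the mean of the single cell libraries and the reverse, within 1e-06. For Cre12.g551352 the column named for cell groups thus reads 7.32 and the column named for single cells 4.04, as the authors' means.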

How the data were processed

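RNA-seq was measured in 6 libraries. Per the paper's methods and the submitters' processing notes, reads were screened with FastQC, aligned by hisat2 to the version 5.0 genome and tallied for each gene by HTSeq. The deposited counts are raw. Tool versions and the treatment of reads that map to several genes are not given in the sources used here, and reads shared between similar copies of a gene could be lost or split. The authors also deposited log2 values normalized with DESeq2, used here only as printed, and a table of their own fold changes and adjusted p-values, which was not used.

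Genes with at least 10 counts in a library of median size (1.30 CPM) in 3 or more of the libraries and a sum of at least 15 counts were tested across all genes with edgeR 4.0.16 (R 4.3.3, TMM factors, quasi-likelihood F test, threshold 0.05). Both members passed this filter through the single cell libraries alone. Standard errors are the log2 fold change divided by the root of F. The fit was tested on simulated data without treatment effects, so that check does not cover treatments standing as replicates. DESeq2 1.42.0, other scalings, no filter, no covariate and each library left out were tried as alternatives. Poisson and binomial intervals came from scipy 1.17.1. All 6 libraries were grouped by the morphotype in their labels. In the main fits the p-values measure only the spread between these pooled libraries that is left after the covariate, and not a spread between cultures.

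Positions come from the RefSeq gene table, in which 17738 of 17741 identifiers matched. All 32 coding variants that the study lists with a gene lay inside the span of that gene in this table. The members, lists and tests were chosen with earlier results of these data known. The genes named are the members, the 10 genes on each side, the 5 genes most like the pair and genes with the same on or off pattern. Planned lists of nitrogen and peroxide genes were not analysed here, since the gene table holds 0 gene symbols.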

Additional observations from a re-analysis of the deposited data

How the results depend on the processing

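Between cell groups and single cells 1077 genes passed (404 lower in cell groups), against 1732 with DESeq2 (769 lower) and between 70 and 1852 when single libraries were left out, the lowest without the rotifer library of single cells and the highest without the control library of cell groups. Low nitrogen against control gave 0 genes with edgeR, 53 with DESeq2 and 0 to 560 with a library left out. Rotifers against control gave 0, 83 and 0 to 945 in the same order, and both highest counts came without the control library of cell groups. Among the neighbours 0 to 1 passed with a library left out, 0 without either rotifer library, and Cre12.g551350 kept a negative log2 fold change in all 11 alternatives (-2.30 to -2.13 with a library left out, edgeR adjusted p 0.00291 to 0.0668). With a library left out the log2 fold change ran from -1.11 to -0.04 for Cre12.g551250, from -2.31 to -0.79 for Cre12.g551500 and from 1.26 to 2.46 for Cre12.g551552, which was tested in 7 of the 11 alternatives. That of Cre12.g551501 ran from -0.16 to 0.015 with a library left out, and was above 0 only without the control library of single cells. With at least 10 counts in place of 100 in single cells, 7 genes had no counts in cell groups. By Spearman's rho, 0 of the 5 genes most like the pair were among the 2 tied at the highest rho, and with a pseudocount of 2 in place of 0.5, 4 of the 5 stayed. Per kilobase of span the share of Cre12.g551352 lay within its interval in every treatment. The cause of these shifts was not tested. At 3 counts the floor was 0.361 to 0.573 CPM in cell groups, which limits how low the pair can be said to lie. The treatment covariate pairs the libraries of the morphotypes by treatment, and without it 1054 genes passed. The labels give no replicate numbers for any further pairing.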

Other observations

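At the lower limit of 10 counts in every single cell library, chosen with the pair already known, a second run of neighbouring genes without counts in cell groups appeared on chromosome 16. Cre16.g674000 had 0, 0 and 0 counts in cell groups against 97, 109 and 134 in single cells (with rotifers, at low nitrogen and in the control). Cre16.g674050 had 0, 0 and 0 counts in cell groups against 28, 21 and 91 in single cells. By position the next gene beside Cre16.g674050 is Cre16.g674100, the gene most like the pair, with 1 count over the cell group libraries, so that these 3 genes are consecutive between 6347099 and 6365750 on chromosome 16. As in the pair, 2 of them were highest in the control library of single cells, while Cre16.g674000 was highest with rotifers at 17.3 CPM, against 12.8 CPM at low nitrogen and 13.8 CPM in the control.

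The remaining genes of this kind stood alone. Cre48.g761147, whose chromosome the gene table gives as unknown, had 0, 0 and 0 counts in cell groups against 47, 30 and 209 in single cells, and Cre01.g047218 had 0, 0 and 0 against 29, 70 and 33. In the opposite direction the 3 genes without counts in single cells did not neighbour each other. Cre06.g285600 was the highest of them, with 211, 399 and 369 counts in cell groups against 0, 0 and 0 in single cells. These genes were named after their values were seen, and the gene table used here gives them no names.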
